A study of Caenorhabditis elegans with 24 samples.

Results

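Argonautes are the proteins that carry small RNAs to their target transcripts. Transcripts of 10 Argonaute genes of the nematode C. elegans were followed across all 8 groups of the study: prg-1, csr-1, hrde-1, wago-1, wago-4, alg-3, alg-4, alg-1, alg-2 and ergo-1. They were chosen by name, through the WormBase gene identifiers in the files. The 10 members were among 12958 genes measured after depletion of HSF-1 and 14206 genes measured in germline nuclei, and all 10 passed the filter on low values in both tables.

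The study asked how reduced insulin signaling changes the requirement of the germline for the heat shock factor HSF-1. RNA was sequenced from 24 libraries, 3 for each of 8 groups. The first 12 libraries came from whole daf-2(e1370) animals, a mutant of the insulin/IGF-1 receptor, of strain JTL642. The animals were kept either on 1 mM auxin, which removes the degron-tagged HSF-1 from the germline, or on ethanol (EtOH) as the control. Exposure lasted 16 h from the young-adult stage or 88 h from egg lay. The other 12 libraries came from young adults that had been lightly fixed: enriched germline nuclei and whole worms of JTL642 and of the wild type for daf-2, strain JTL621, which carries unc-119(ed3). Every strain, the wild type included, carried hsf-1::degron::gfp and the TIR1 ligase under the sun-1 promoter, which is active in the germline, so that TIR1 acts in germ cells. Each library pooled many animals. The groups on auxin differ from their controls in auxin as well as in HSF-1, and these cannot be told apart here. The study calls the libraries of a group biological replicates, and each nuclei preparation also gave a whole worm lysate for sequencing.

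C. elegans has an enlarged Argonaute family, and its members divide the work by tissue and by small RNA class. PRG-1 is the Piwi protein that binds piRNAs in the germline. Its targets are silenced through secondary 22G-RNAs bound by worm-specific Argonautes: WAGO-1 in the cytoplasm and in perinuclear granules, HRDE-1 in the nucleus, where it carries silencing to the progeny, and WAGO-4, which also takes part in inherited RNAi. CSR-1 binds 22G-RNAs against transcripts that the germline does express and is needed for fertility. ALG-3 and ALG-4 are paralogs that bind 26G-RNAs during spermatogenesis. ERGO-1 binds 26G-RNAs in oocytes and embryos. ALG-1 and ALG-2 are the paralogs that load microRNAs, mostly in somatic tissues.

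The genes lie on 6 chromosomes of the WBcel235 build. On chromosome I are prg-1, at 7585329 to 7588367, and wago-1, at 7235384 to 7238792. On chromosome II are wago-4, at 12919551 to 12923377, and alg-2, at 873212 to 879885. On chromosome III are hrde-1, at 4172337 to 4176159, and alg-4, at 9887209 to 9891424. On chromosome IV are csr-1, at 7957267 to 7962157, and alg-3, at 11704246 to 11708264. The last pair are ergo-1 on chromosome V, at 1008803 to 1018352, and alg-1 on chromosome X, at 13949110 to 13956261. Other protein-coding genes overlap prg-1 (D2030.12), csr-1 (frpr-10) and ergo-1 (pei-2), and whether counting used strand is not given in the sources used here, so some reads of these members may belong to the neighbour. Reads that fit both members of a paralog pair were counted as fractions of each.

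Depth set the precision. Nuclei libraries held an estimated 13900000 to 19300000 reads, the worm libraries beside them 21900000 to 28800000 and the libraries of the depletion experiment 20900000 to 38000000. Levels are in CPM, reads relative to a library size that the authors scaled, so that the deposited CPM of a library summed to 1236882 to 2688300 in nuclei and 424276 to 645863 in the worms beside them. Ribosomal RNA took 37.98 to 72.9% of the reads in nuclei against 9.4 to 35.1% in worms and 1.7 to 8.1% in the depletion table. A single read was therefore worth 0.089 to 0.157 CPM in nuclei and at most 0.045 CPM elsewhere. The nuclei are labelled germline, yet the summed CPM of 20 oocyte and germ cell markers was 833 to 1112 in wild-type nuclei against 1154 to 1662 in wild-type worms, and 1132 to 1596 against 1446 to 2632 in daf-2. The summed level of 13 intestinal markers was 455 to 817 CPM in nuclei of both genotypes against 1514 to 7238 in worms, and that of 13 muscle markers 1176 to 1306 against 1727 to 3598. For 11 hypodermis markers it was 261 to 570 CPM against 823 to 1533. The sum of 13 neuronal markers was not lower in nuclei, at 107 to 198 CPM against 89 to 164 in worms. Among the daf-2 worms replicate 1 stood apart, with a germ cell marker sum of 1446 CPM against 2632 and 2591 in the others.

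Transcripts of the germline Argonautes stood above those of the microRNA Argonautes. Levels of different genes are compared here as log2 CPM per kb of exons. In each of the 24 libraries all 5 germline members lay above both alg-1 and alg-2, and the gap between the lowest of the former and the highest of the latter ran from 0.93 to 3.53. The mean of the germline members exceeded that of alg-1 and alg-2 by 4.33 ± 0.33 (SD, n = 3) in the 16 h controls, 4.29 ± 0.03 in the 16 h auxin group, 4.19 ± 0.05 in the 88 h controls and 4.10 ± 0.06 in the 88 h auxin group. In the nuclei table the same difference was 3.53 ± 0.81 in wild-type worms, 4.43 ± 0.31 in wild-type nuclei, 4.49 ± 0.11 in daf-2 worms and 5.03 ± 0.53 in daf-2 nuclei. The difference was thus similar with and without auxin, and it was most variable in wild-type worms. Less RNA per cell and fewer cells of a type cannot be told apart in such bulk samples.

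**Figure D1:**
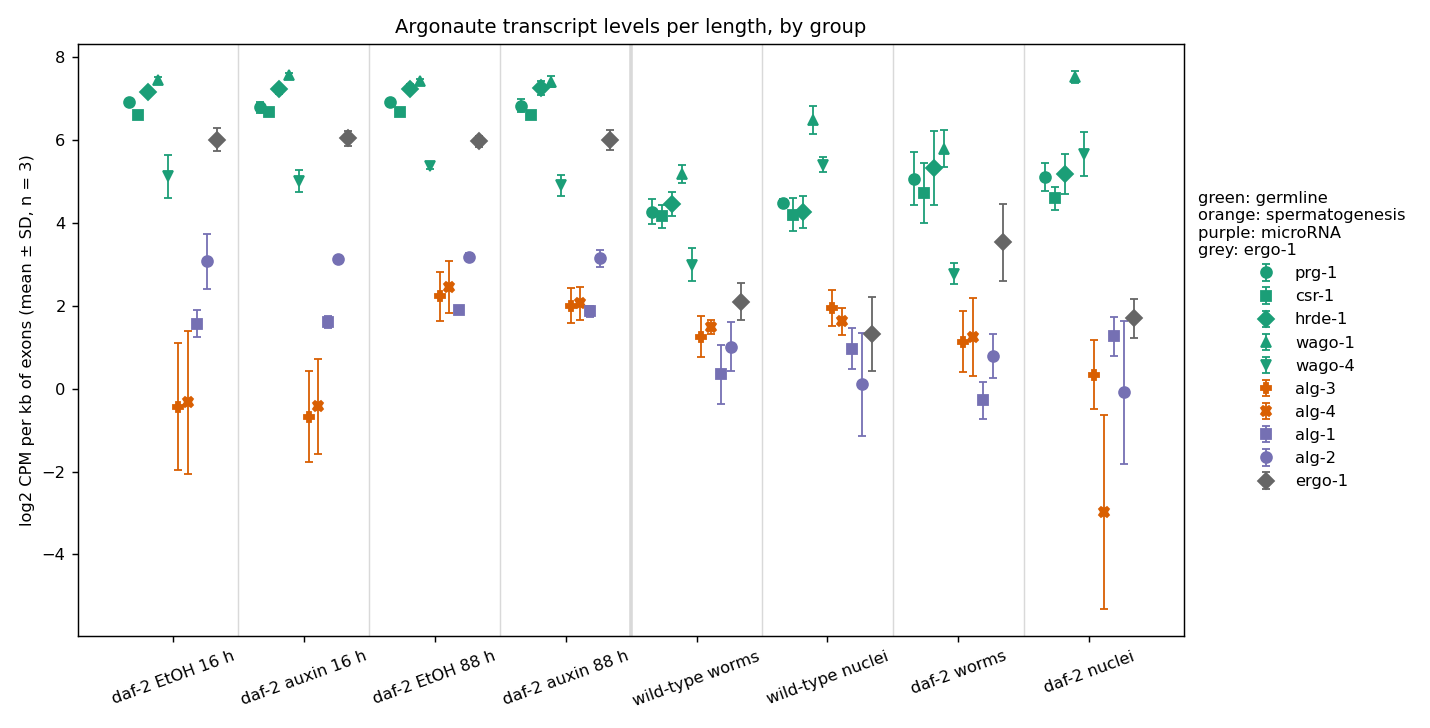
Mean level per length of each Argonaute transcript (log2 CPM per kb of exons) in the 8 groups, with bars for the SD of 3 libraries. The heavier line separates the depletion table on the left from the nuclei table on the right, which were normalized separately. In each group wago-1 is highest and the germline members lie above alg-1 and alg-2.

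The 4 highest members kept their order in the 6 groups of whole animals, and the lower ranks varied. wago-1 was the highest per kb in all 24 libraries, at 7.45 ± 0.07 in the 16 h controls. In these controls hrde-1 (7.17 ± 0.06), prg-1 (6.91 ± 0.05) and csr-1 (6.60 ± 0.10) followed, and no neighbours among the 4 overlapped. Then came ergo-1 (6.02 ± 0.29) and wago-4 (5.13 ± 0.52). alg-2 (3.07 ± 0.66) and alg-1 (1.57 ± 0.32) were lower still, and alg-4 (-0.33 ± 1.73) and alg-3 (-0.43 ± 1.53) came last, with overlapping values. The 16 h auxin group kept the same sequence, although prg-1 and csr-1 overlapped there. At 88 h alg-3, alg-4 and alg-1 overlapped in both groups, with alg-1 now last, at 1.90 ± 0.07 in the controls. In worms of the nuclei table alg-4 and alg-3 also stood above alg-2 and alg-1 in their means.

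In nuclei wago-4 ranked higher. It came 2 of 10 in both nuclei groups, at 5.41 ± 0.18 (wild type) and 5.67 ± 0.53 (daf-2), whereas it came 5 of 10 in wild-type worms (2.99 ± 0.40) and 6 of 10 in daf-2 worms (2.78 ± 0.25). It did not overlap with its neighbours in wild-type nuclei, but it overlapped with hrde-1 in daf-2 nuclei. ergo-1 came 5 of 10 in daf-2 worms, at 3.54 ± 0.93, and in daf-2 nuclei it stood at 1.70 ± 0.47, where it overlapped with alg-1. The remaining germline members, hrde-1, prg-1 and csr-1, lay close together in wild-type worms (4.46 ± 0.28, 4.27 ± 0.30 and 4.16 ± 0.28), and each overlapped with the next.

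**Figure D2:**
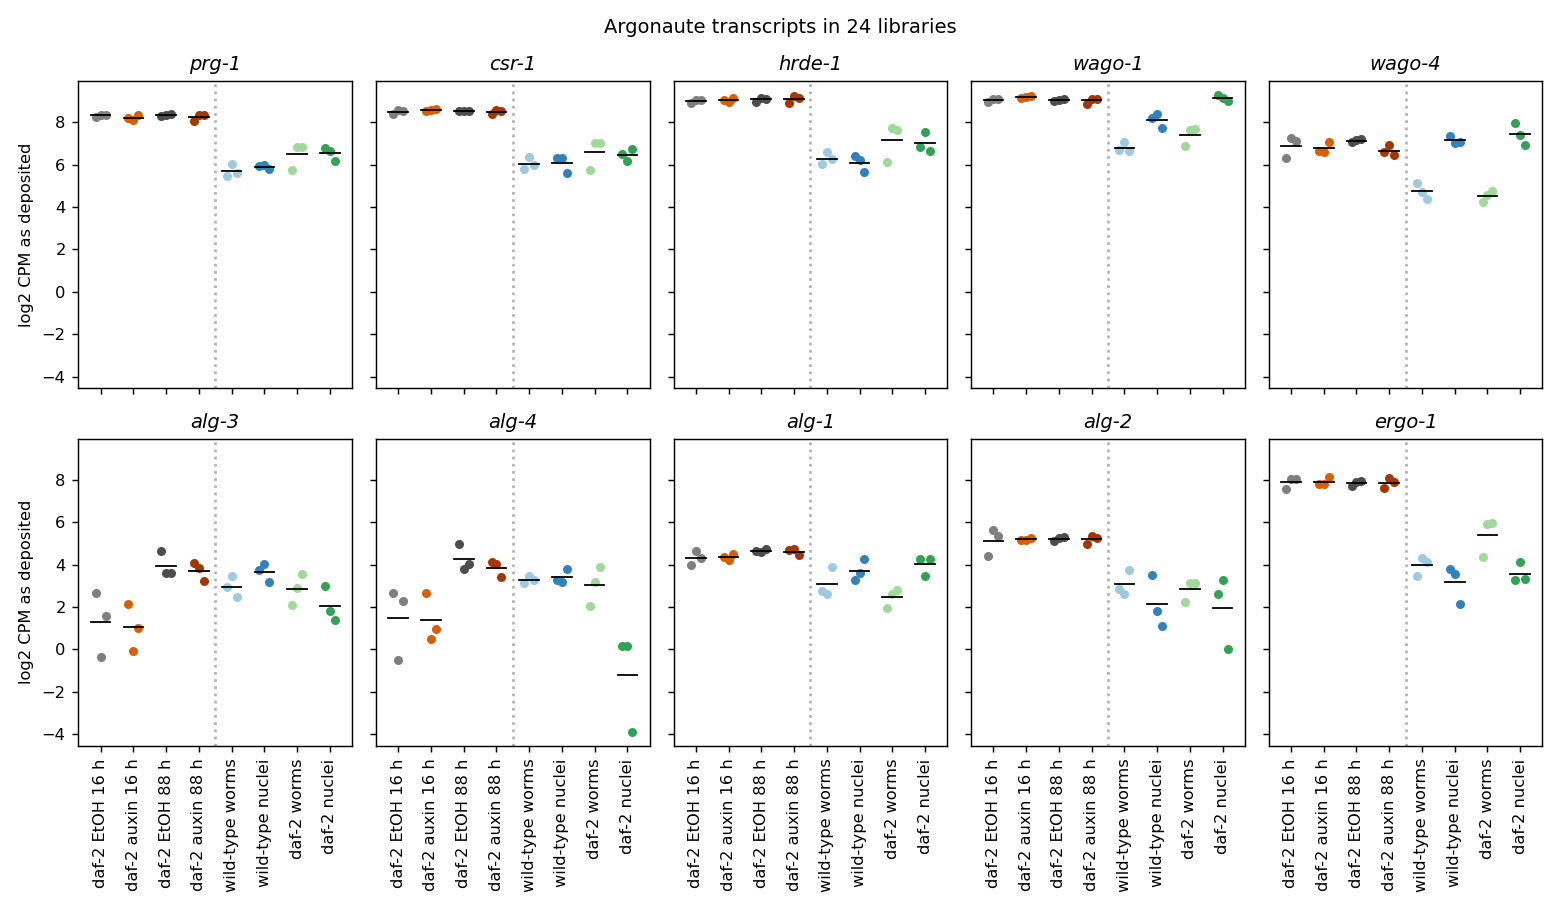
Deposited log2 CPM of each Argonaute transcript, 1 point per library and a line at the mean of 3. The dotted line separates the 2 tables. Within the depletion table most members form tight clusters and alg-3 and alg-4 move with the schedule, and in the nuclei table wago-4 and wago-1 stand higher in nuclei than in worms.

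The same strain had much higher levels of most members in the depletion table than in the nuclei table. In whole daf-2 animals, wago-1 stood at 535 ± 27.2 CPM in the 16 h controls and at 174 ± 48.4 CPM in the fixed young adults. For prg-1 these values were 321 ± 11.4 and 95.1 ± 35.5 CPM, and for ergo-1 239 ± 44.5 and 47.7 ± 23.8 CPM. Germ cell marker sums stood at 7779 to 9669 CPM in the former and 1446 to 2632 CPM in the latter, and intestinal marker sums at 37652 to 93184 and 3572 to 7238 CPM. The tables were normalized separately and the animals differ in age, fixation and treatment, so these are levels side by side without a test.

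Comparing isolated nuclei with whole worms asks which transcripts the preparation enriches. In the wild type wago-4 and wago-1 rose in nuclei, 2 of the 10 members, where 35.3% of all 13613 genes tested changed in either direction and 15.9% rose. In daf-2 wago-4, wago-1 and alg-1 rose and alg-4 and ergo-1 fell, 5 of the 10 members, where 53.3% of all genes changed, with 21.3% of all genes upward and 4358 genes downward. All genes together had a median log2 change of -0.34 (wild type) and -0.63 (daf-2). The median over the members was 0.18 and -0.14. A fold change is a difference of deposited log2 CPM, given with its standard error, and adjusted p-values are from limma over all genes with the Benjamini-Hochberg method.

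wago-4, the germline Argonaute of inherited RNAi, had the largest rise. Its level was 165, 130 and 136 CPM in the 3 libraries of wild-type nuclei and 35.6, 26.4 and 20.6 CPM in those of wild-type worms. In daf-2 it was 252, 167 and 121 CPM in nuclei and 19.1, 24.03 and 26.9 CPM in worms. All nuclei libraries lay far above all worm libraries. The log2 fold change was 2.41 ± 0.29 in the wild type (limma, adjusted p = 5.4e-05) and 2.90 ± 0.29 in daf-2 (adjusted p = 2.66e-06), above 92.9% and 91.3% of all genes.

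wago-1, the most abundant member, rose as well. It was at 298, 333 and 211 CPM in wild-type nuclei against 104, 132 and 99.8 CPM in wild-type worms. In daf-2 it was at 623, 566 and 511 CPM in nuclei against 118, 200 and 203 CPM in worms. The groups did not overlap in either genotype. The log2 fold change was 1.31 ± 0.26 (adjusted p = 0.0016, limma) in the wild type and 1.74 ± 0.26 (adjusted p = 9.52e-05) in daf-2. Forcing one distribution on all libraries, as quantile normalization does, lowered these to 0.48 and 0.39, and neither then passed (adjusted p = 0.237 and 0.307).

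The other germline members did not pass. csr-1 stood at 80.3, 78.3 and 48.9 CPM in wild-type nuclei and 55.6, 81.5 and 62.8 CPM in worms, a log2 difference of 0.04 (95% interval -0.68 to 0.75). prg-1 differed by 0.22 (-0.42 to 0.86) and hrde-1 by -0.19 (-1.02 to 0.63). In daf-2 the differences were -0.12 for csr-1, 0.04 for prg-1 and -0.16 for hrde-1, with intervals of similar width. Adjusted p ran from 0.596 to 0.941 for the 3 genes in both genotypes. With quantile normalization the daf-2 differences moved to -0.66 for csr-1, -0.44 for prg-1 and -0.99 for hrde-1 (adjusted p = 0.0953), and those in the wild type to -0.24, 0.04 and -0.51.

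alg-1, a microRNA Argonaute, rose in daf-2 nuclei. It was at 19.3, 11.1 and 19.5 CPM in daf-2 nuclei against 3.87, 6.10 and 7.05 CPM in daf-2 worms, and the groups did not overlap. Its log2 fold change was 1.55 ± 0.45 (adjusted p = 0.0101). In the wild type alg-1 stood at 9.78, 12.1 and 19.1 CPM in nuclei and 6.74, 6.12 and 15.01 CPM in worms, a difference of 0.62 ± 0.45 that did not pass (adjusted p = 0.3). Its paralog alg-2 spread widely in nuclei, at 11.5, 3.55 and 2.17 CPM for the wild type and 6.06, 9.75 and 1.01 CPM for daf-2, on 6 to 109 reads. The differences from worms, -0.91 ± 0.80 and -0.87 ± 0.80, were not resolved at this depth.

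ergo-1, the Argonaute of oocytes and embryos, fell in daf-2 nuclei. It was at 9.54, 17.3 and 10.1 CPM there and at 20.2, 61.2 and 61.7 CPM in daf-2 worms. The highest nuclei library lay just under the lowest worm library, replicate 1, which also had the lowest germ cell marker sum. The log2 fold change was -1.84 ± 0.51 (adjusted p = 0.0078). In wild-type nuclei ergo-1 was at 14.1, 11.9 and 4.47 CPM against 10.99, 19.9 and 17.6 CPM in worms, and the difference of -0.79 ± 0.51 did not pass (adjusted p = 0.247).

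alg-4, which acts in spermatogenesis, was nearly missing from daf-2 nuclei. Its 3 libraries held 1.11, 1.13 and 0.07 CPM there, the last being the value the table gives to 0 reads, and the others rest on an estimated 7.5 and 12 reads. daf-2 worms held 4.12, 9.16 and 14.96 CPM. Wild-type nuclei held 9.78, 8.99 and 13.8 CPM and wild-type worms 8.62, 10.9 and 9.65 CPM. The daf-2 nuclei thus lay below every other library of the table. Against daf-2 worms the log2 fold change was -4.23 ± 0.90 (adjusted p = 0.00141), and it was -2.88 without the library at 0 reads (adjusted p = 0.000694) and -2.48 on log2(CPM + 1). Its paralog alg-3 held 7.87, 3.46 and 2.58 CPM in daf-2 nuclei and 4.24, 7.39 and 11.9 CPM in daf-2 worms, a difference of -0.80 ± 0.53 that did not pass (adjusted p = 0.213). Sperm marker sums were 560 to 951 CPM in daf-2 nuclei and 495 to 675 CPM in daf-2 worms, but their median level was 2.84 to 3.53 log2 CPM in the nuclei and 3.66 to 4.07 in the worms. Of the 41 sperm markers 7 fell and 7 rose between these groups, with a median of -0.30, and their part in the value of alg-4 was not tested.

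**Figure D3:**
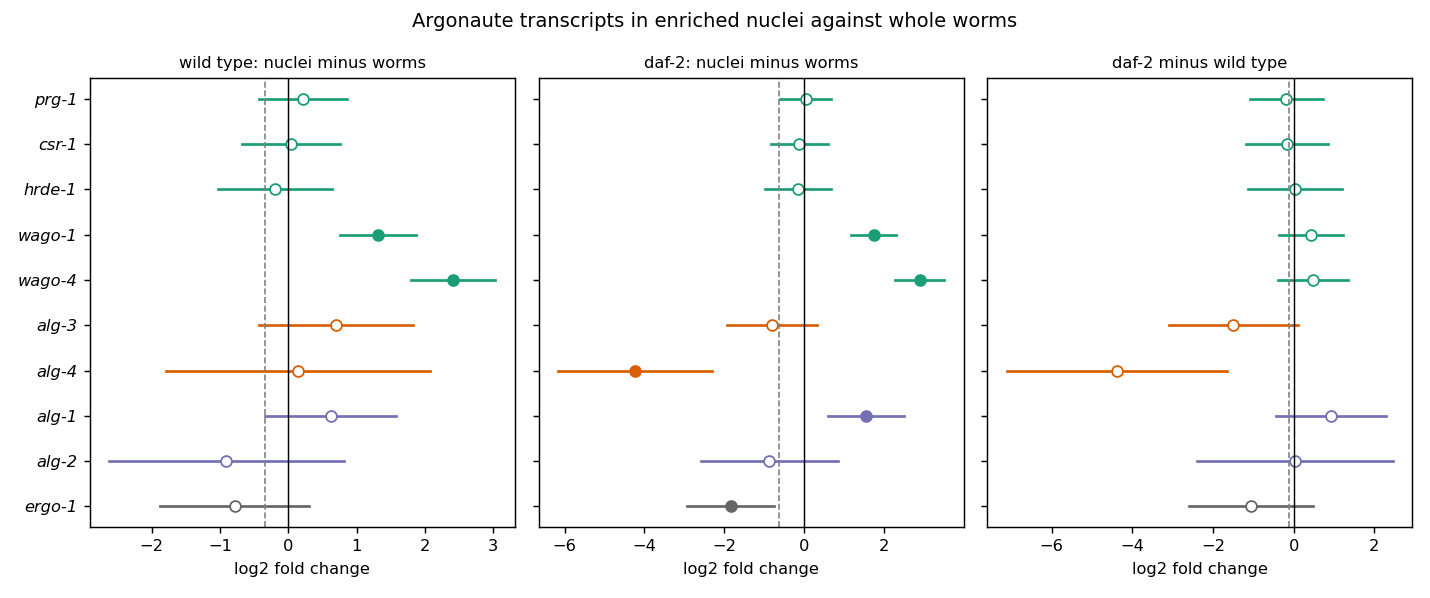
Log2 fold change of each Argonaute transcript between nuclei and worms in wild-type and daf-2 animals, and the difference between these effects, with 95% intervals. Filled points passed the test over all genes, the dashed line is the median of all genes, colors are those of the plot of levels per length, and each panel has its own scale. wago-4 and wago-1 are filled in both genotypes, and no point is filled in the panel of differences.

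Whether enrichment in nuclei differed between the genotypes was tested with the interaction term, and 0 of the 10 members passed, where 0.103% of all genes did. With a block for each preparation 1 gene of all passed, and 0 members. At an unadjusted p under 0.05 there was 1 member, alg-4, beside 12.2% of all genes. Its difference was -4.38 ± 1.27 (95% interval -7.11 to -1.64, adjusted p = 0.157), and it did not pass under any alternative setting. It was -3.02 without the library at 0 reads and -2.61 on log2(CPM + 1). For alg-3 the difference was -1.50 ± 0.75, for alg-1 0.93 ± 0.63 and for ergo-1 -1.05 ± 0.72. So the calls for alg-1, alg-4 and ergo-1 in daf-2 are not shown to differ from the wild type.

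Comparing daf-2 with the wild type asks how reduced insulin signaling changes germline transcripts. In nuclei 0 of the 10 members passed, against 3.85% of all genes, and 5 members had an unadjusted p under 0.05, as did 20.9% of all genes. These 5 were prg-1, hrde-1, wago-1, alg-3 and alg-4, and in each the libraries of the genotypes did not overlap, which held for 26.98% of all genes. The members' median difference was 0.34 and that of all genes -0.15. In worms ergo-1 rose, 1 of the 10 members, where 18.0% of all genes changed and 6.81% rose.

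In nuclei wago-1 came closest to the threshold among the members. Its 3 daf-2 libraries, 623, 566 and 511 CPM, lay above the wild type at 298, 333 and 211 CPM, a log2 difference of 1.04 ± 0.21 (adjusted p = 0.052). It passed under 3 of 13 alternatives, when all 12 libraries shared one estimate of the spread (adjusted p = 0.0208), with quantile normalization (0.0156) and with median-of-ratios scaling (0.035), and adjusted p reached 0.192 under the others. For hrde-1 the values were 114.7, 186 and 98.5 CPM against 84.2, 73.4 and 50.6 CPM (0.92 ± 0.30, adjusted p = 0.155). For prg-1 they were 110, 100 and 71.0 CPM against 61.2, 63.01 and 55.7 CPM (0.62 ± 0.20, adjusted p = 0.151). csr-1 and wago-4 differed by 0.39 ± 0.26 and 0.27 ± 0.28. The summed level of germ cell markers was likewise above the wild type in each daf-2 nuclei library, at 1132 to 1596 CPM against 833 to 1112 CPM, and 3 of these 20 markers passed, all upward. Their part in the values of the germline members was not tested.

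The spermatogenesis pair lay lower in daf-2 nuclei. alg-4 differed by -4.60 ± 1.27 and alg-3 by -1.62 ± 0.54, and neither passed (adjusted p = 0.105 and 0.16). Without the library at 0 reads alg-4 differed by -3.25 (adjusted p = 0.0554). Under 3 of 13 alternatives alg-4 passed, with all 12 libraries (adjusted p = 0.00571), with quantile normalization (0.0426) and on log2(CPM + 1) (0.0401), where its difference was -2.79. Sperm marker sums were 560 to 951 CPM in daf-2 nuclei and 976 to 1556 CPM in the wild type, and 2 of 41 sperm markers passed, both downward. Of these 41 markers 0 to 2 were at 0 reads per wild-type nuclei library and 1 to 4 per daf-2 nuclei library. Whether the sperm content has a part in the values of alg-3 and alg-4 was not tested. alg-1 and alg-2 differed by 0.30 ± 0.38 and -0.19 ± 1.08 in nuclei, and ergo-1 by 0.38 ± 0.53.

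In whole worms ergo-1 was at 20.2, 61.2 and 61.7 CPM in daf-2 and at 10.99, 19.9 and 17.6 CPM in the wild type. Its log2 fold change was 1.44 ± 0.43 (adjusted p = 0.042, limma), and the groups did not overlap, although replicate 1 of daf-2 lay barely above the highest wild-type library. Of 13 alternatives 5 kept the call, and leaving out 1 library gave values from 1.17 to 1.97 with adjusted p up to 0.167. The call was lost without replicate 1 or 3 of the wild type and without replicate 2 or 3 of daf-2. Without replicate 1 of daf-2 ergo-1 passed at 1.97, and so did hrde-1 (1.40, adjusted p = 0.0204), prg-1 (1.17, 0.0302), csr-1 (0.97, 0.0408) and wago-1 (0.86, 0.0466). In that fit 13.3% of all genes passed, 839 upward and 978 downward.

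With all 6 worm libraries those germline members did not pass. hrde-1 was at 70.1, 209 and 200 CPM in daf-2 against 64.4, 95.2 and 76.4 CPM in the wild type (0.88 ± 0.40, adjusted p = 0.136). prg-1 was at 54.2, 116 and 116 CPM against 43.7, 64.9 and 48.1 CPM (0.80 ± 0.33, adjusted p = 0.11). In both, replicate 1 of daf-2 lay within or near the wild type and the other libraries far above it. The daf-2 worms had higher germ cell marker levels too, with 4 of 20 markers passing upward and a median of 0.74. Of 13 intestinal markers 8 rose, with a median of 1.00 and sums of 3572 to 7238 CPM against 1514 to 2852 CPM. The part of either marker list in the values of ergo-1 and the germline members was not tested. wago-4, alg-3, alg-4, alg-1 and alg-2 differed by -0.63 to -0.12 and none passed (adjusted p from 0.282 to 0.859).

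**Figure D4:**
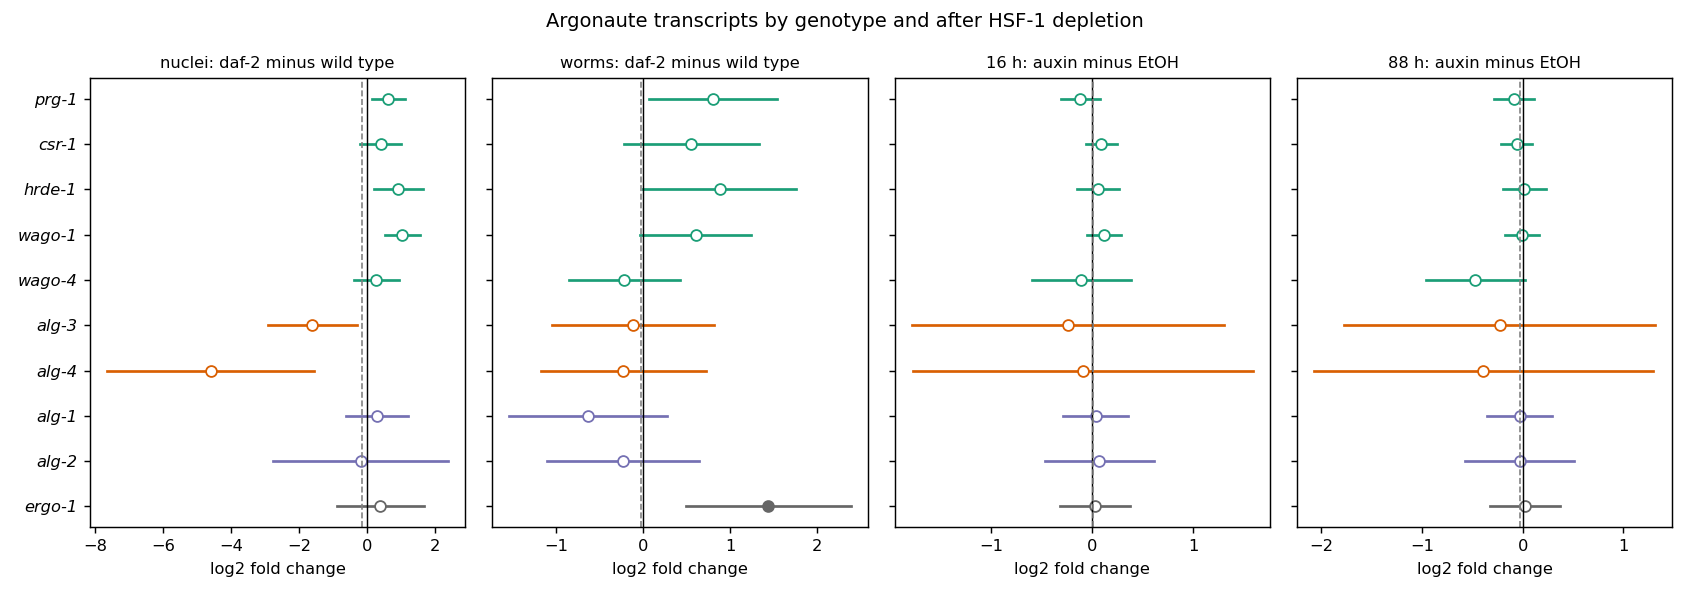
Log2 fold change of each Argonaute transcript between daf-2 and the wild type in nuclei and in worms, and between auxin and EtOH at 16 h and 88 h, with 95% intervals. Filled points passed the test over all genes, the dashed line is the median of all genes, colors are those of the plot of levels per length, and each panel has its own scale. Only ergo-1 in worms is filled, and after depletion all intervals include 0.

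Germline depletion of HSF-1 in daf-2 animals left no detectable change in any Argonaute transcript. At 16 h 0 of the 10 members passed, where 0.0792% of all 12634 genes did, and at 88 h 0 of the 10, where 0.103% did. No member had an unadjusted p under 0.05 at either time, against 560 and 752 of all genes. Nor did the effect differ between the schedules for any member, with 0 of 10 past the threshold, 0 at an unadjusted p under 0.05, and 0.0% of all genes past it (241 genes at an unadjusted p under 0.05).

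The estimates were narrow for csr-1, wago-1, hrde-1 and prg-1, and wider for wago-4. At 16 h csr-1 differed by 0.09 (95% interval -0.07 to 0.24), wago-1 by 0.11 (-0.06 to 0.28), hrde-1 by 0.06 (-0.15 to 0.27) and prg-1 by -0.12 (-0.31 to 0.08). At 88 h the values were -0.06 (-0.21 to 0.10), -0.01 (-0.18 to 0.16), 0.02 (-0.19 to 0.23) and -0.08 (-0.28 to 0.11). ergo-1 differed by 0.03 and 0.02, alg-1 by 0.03 and -0.03 and alg-2 by 0.07 and -0.03, and the widest of these intervals, that of alg-2 at 16 h, ran from -0.47 to 0.61. wago-1 stood at 556, 575 and 603 CPM in the 16 h auxin libraries and at 503, 549 and 552 CPM in their controls, so the groups did not overlap although their difference was small. This held for 1 of the 10 members at 16 h, and the share of all genes without overlap was not counted there.

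wago-4 had the largest difference of the members at 88 h. It was at 95.5, 122.98 and 88.5 CPM on auxin and at 132, 143 and 147 CPM in the controls. All auxin libraries lay below all controls, with a log2 difference of -0.47 ± 0.22 (95% interval -0.96 to 0.02, adjusted p = 0.838). It was the only 1 of the 10 members without overlap at 88 h. The share of all genes without overlap was not counted there, so nothing is read from it. At 16 h its groups overlapped, at 100, 96.7 and 135 CPM on auxin and 78.3, 151 and 139 CPM in the controls, and the 95% interval ran from -0.60 to 0.38. The intervals of alg-3 and alg-4 reached from -1.79 to 1.31 and from -1.78 to 1.59 at 16 h, and were similarly wide at 88 h, so changes of this pair were poorly resolved.

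The controls of the 2 schedules differed in both spermatogenesis Argonautes. alg-3 and alg-4 were higher in the 88 h than in the 16 h controls, 2 of the 10 members, where 9.89% of all genes changed and 7.61% rose. Stage, handling and duration differ together between these controls and cannot be told apart. alg-3 was at 24.7, 12.2 and 12.04 CPM at 88 h against 6.22, 0.77 and 2.98 CPM at 16 h, a log2 fold change of 2.66 ± 0.70 (adjusted p = 0.043). alg-4 was at 31.01, 13.7 and 16.1 CPM against 6.26, 0.70 and 4.80 CPM, a change of 2.78 ± 0.77 (adjusted p = 0.0467). All libraries at 88 h lay above all at 16 h in both genes, also in the auxin groups, where alg-4 was at 17.5, 16.4 and 10.6 CPM at 88 h and at 6.37, 1.39 and 1.94 CPM at 16 h.

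Both calls were close to the threshold. Replicate 2 of the 16 h controls had the fewest reads of the pair, 19 for alg-3 and 17 for alg-4. Without it the changes were 1.83 and 1.79 and did not pass (adjusted p = 0.126 for each). Leaving out 16 h replicate 3 or any of the 88 h controls gave 2.32 to 2.84 for alg-3 and 2.43 to 3.18 for alg-4, with adjusted p from 0.059 to 0.168. The other 8 members differed by -0.04 to 0.33 between the controls, with alg-1 highest at 0.33 ± 0.15 (adjusted p = 0.145).

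Sperm markers varied in step with this pair. Their summed level was 513, 87.0 and 252 CPM in the 16 h controls, which ranked as alg-3 and alg-4 did, and 1954, 779 and 780 CPM in the 88 h controls. Of 36 sperm markers tested 35 were higher at 88 h and 11 passed, with a median of 2.45. Markers of muscle were higher as well, with 10 of 13 passing, and those of the hypodermis, with 5 of 11. Of 20 oocyte and germ cell markers 0 passed, with a median of -0.03. Of 13 intestinal markers 4 rose and 1 fell, and of 13 neuronal markers 1 rose. The part of sperm content in the change of alg-3 and alg-4 was not tested. Over the 12 libraries of the depletion table alg-3 and alg-4 correlated at 0.99 (Pearson's r, a description over libraries that share groups and schedules), and over the 12 of the nuclei table at 0.76.

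**Figure D5:**
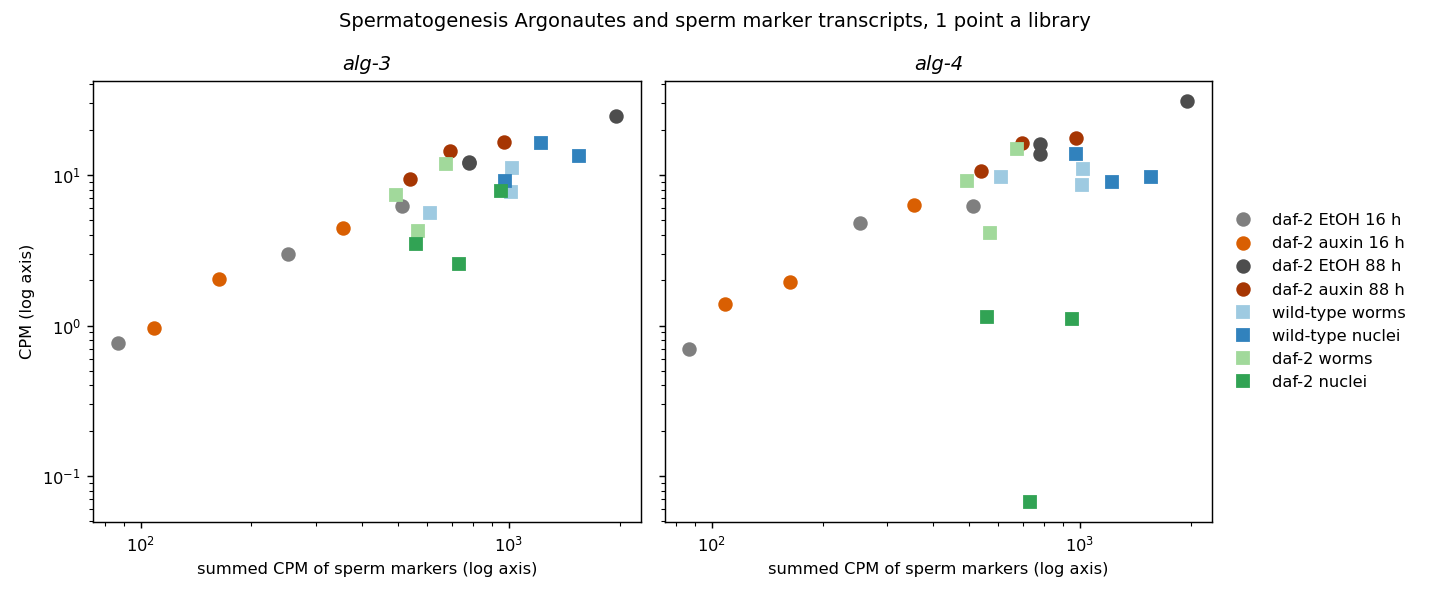
Level of alg-3 and of alg-4 (CPM, log axis) against the summed CPM of the sperm markers (log axis) in the 24 libraries, with circles for the depletion table and squares for the nuclei table. Circles sum 36 markers and squares 41, and the tables were normalized separately, so squares cannot be read against circles. Libraries of the depletion table rise along a line in both genes, from 0.77 to 24.7 CPM for alg-3. Among the squares the 3 daf-2 nuclei libraries are the lowest for alg-4, 1 of them at the value for 0 reads, and for alg-3 they overlap with other squares.

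Of the remaining Argonautes, 9 were tested in both tables. The set holds rde-1, the Argonaute of exogenous RNAi, alg-5, a germline relative of the microRNA Argonautes, and nrde-3, which acts in somatic nuclei. After depletion of HSF-1 none passed at 16 h or 88 h, where 0.0792% and 0.103% of all genes did. In wild-type nuclei alg-5 (1.41 ± 0.23), ppw-1 (1.27 ± 0.33) and sago-2 (1.13 ± 0.37) rose relative to worms and vsra-1 fell, where 35.3% of all genes changed. In daf-2 nuclei 5 rose and 2 fell, where 53.3% of all genes changed. alg-5 had the clearest rise there, 248 ± 49.7 CPM in daf-2 nuclei against 40.2 ± 8.23 CPM in worms (2.62 ± 0.23, adjusted p = 1.1e-06). vsra-1 was at 0 reads in all 3 daf-2 nuclei libraries and at 7.48 to 14.6 CPM in daf-2 worms, at least 30.5-fold lower when 3 reads per library are taken as the floor. The set had median differences of 0.16 (wild type) and 0.92 (daf-2).

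In daf-2 nuclei 2 of these 9 Argonautes were higher than in wild-type nuclei, where 3.85% of all genes changed. They were rde-1 (118 ± 21.1 against 48.3 ± 3.66 CPM) and alg-5 (248 ± 49.7 against 114 ± 18.2 CPM). Their log2 fold changes were 1.28 ± 0.18 and 1.11 ± 0.21 (limma, adjusted p = 0.0314 and 0.0423). In daf-2 worms nrde-3 rose from 2.38 ± 0.88 to 7.69 ± 2.61 CPM (1.69 ± 0.41, adjusted p = 0.021). It was 1 of the 9, where 18.0% of all genes changed and 6.81% rose. Between the 88 h and 16 h controls ppw-2 (0.48 ± 0.12) and wago-10 (1.77 ± 0.44) rose (adjusted p = 0.0356 and 0.0377). These were 2 of the 9, where 9.89% of all genes changed and 7.61% rose.

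Partners of the Argonautes moved in both directions in nuclei, more of them down. Of 69 genes on 5 lists 25 changed in the wild type, 36.2% beside 35.3% of all genes, and 42 in daf-2, 60.9% beside 53.3%. Without regard to direction these shares lay near those of all genes. On the lists 7 rose and 18 fell in the wild type, and 9 rose and 33 fell in daf-2. Of all 13613 genes 2170 rose and 2638 fell in the wild type, and 2898 rose and 4358 fell in daf-2. Falls thus outnumbered rises by more on the lists than over all genes. This was not particular to the partners. Of the 20 oocyte and germ cell markers 1 rose and 7 fell in the wild type, and 2 rose and 9 fell in daf-2. The genes pgl-1 and glh-1 are both markers and partners. Among 14 piRNA biogenesis genes 1 rose and 4 fell in wild-type nuclei, with the rise in parn-1 (1.21 ± 0.32), which trims piRNAs, and 1 rose and 8 fell in daf-2 nuclei. Of 23 genes that make 22G-RNAs and 26G-RNAs 2 rose and 5 fell in the wild type, and 2 rose and 9 fell in daf-2. There mut-16, the scaffold of mutator foci, rose by 2.20 ± 0.27 and mut-2, a nucleotidyltransferase, fell by 4.70 on the log2 scale. Of 9 nuclear RNAi genes 1 rose and 2 fell in the wild type and 2 rose and 4 fell in daf-2, and the histone methyltransferase gene set-25 rose in both (1.82 ± 0.33 and 3.89 ± 0.33). The 9 microRNA genes gave 1 rise and 2 falls, then 2 rises and 5 falls, with xrn-1 rising in both (2.04 ± 0.42 and 2.17 ± 0.42). Of 14 germ granule genes 2 rose in each genotype, mip-1 and pgl-3, and 5 and 7 fell, cgh-1 and car-1 among them. The medians of these lists ran from -0.85 to -0.23 in the wild type and from -1.39 to -0.33 in daf-2, beside -0.34 and -0.63 over all genes.

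The same lists held few changes elsewhere. After depletion of HSF-1 0 of their 69 genes passed at either time, where 0.0792% (16 h) and 0.103% (88 h) of all genes did. At 16 h their medians lay between 0.03 and 0.12 and at 88 h between -0.11 and 0.05, beside 0.01 and -0.02 over all genes. In daf-2 nuclei 0 of the 69 passed, where 3.85% of all genes did, with medians of 0.16 to 0.58 beside -0.15 over all genes. In daf-2 worms 4 of the 69 rose and 0 fell, 5.8%, where 18.0% of all genes changed and 6.81% rose. They were mut-2 (1.89 ± 0.36), mut-14 (0.94 ± 0.28), drsh-1 (1.02 ± 0.27), which cuts microRNA precursors, and car-1 (1.18 ± 0.35). The medians there were 0.49 to 0.81 beside -0.02. Between the controls mut-2 fell by 0.25 on the log2 scale and no other gene of these lists passed. That was 1.45% of the 69, where 9.89% of all genes changed.

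The genes whose profile over the 12 libraries of a table was most like each member were found by Pearson's r, as a description, since all genes share the libraries, their groups and their depth. In the nuclei table wago-1 was closest to pie-1 (0.99) and wago-4 to pssy-2 (0.99), and prg-1 was closest to mcm-2 (0.96), hrde-1 to mex-3 (0.94) and csr-1 to dcp-66 (0.91). ergo-1 was closest to gpd-4 (0.96), alg-1 to W05F2.4 (0.96) and alg-2 to sto-1 (0.91). alg-3 was closest to hasp-2 (0.90) and alg-4 to T05F1.5 (0.98). In the depletion table the closest genes were nmy-2 for wago-1 (0.96), cdc-37 for wago-4 (0.96), him-6 for prg-1 (0.95), dcaf-1 for hrde-1 (0.96) and Y48C3A.14 for csr-1 (0.91). For alg-3 and alg-4 they were C10G11.8 and K08A2.2 (1.00 each), for ergo-1 gei-6 (0.98), for alg-1 pab-2 (0.95) and for alg-2 denn-4 (0.97). No gene was the closest to the same member in both tables.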

How the data were processed

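PolyA-enriched, directional libraries were prepared with a NEBNext Ultra II kit and sequenced as pairs. The authors aligned reads with STAR to WBcel235 (multi-mapped reads allowed), assigned them to genes with featureCounts, where a read with several hits counted as fractions, and removed genes of low expression with edgeR. The deposited values are log2 CPM, reads relative to the scaled library size. Versions of featureCounts and edgeR are not given in the sources used here. The authors' own comparison tables (fold changes, test statistics and p-values) were not used.

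All 24 columns were used. The filter, 1 CPM or more in 25% or more of a table's libraries, left 12634 of 12958 genes after depletion and 13613 of 14206 in the nuclei table. Each table was fitted separately with limma 3.58.1 (lmFit, eBayes with an intensity trend, R 4.3.3) on the deposited log2 values, with no pseudocount and no covariate, two-sided, with Benjamini-Hochberg adjustment over all kept genes and a threshold of 0.05. Fits used all 12 libraries of a table, or the 6 of one kind for daf-2 against the wild type. Intervals are 95%. The study used a likelihood ratio test on counts, which log2 values do not allow. The fits were tested on simulated data. Members and lists were chosen with earlier results of these data known. All 10 members are named. Of each other list the counts are given with up to 4 genes of smallest adjusted p, and for each member the genes most correlated with it. wago-5 was in neither table, and prg-2, wago-2, wago-11, tofu-3 and ntl-1 had no match in the annotation (Ensembl release 115), which also gave positions and exon lengths. Reads per library were estimated from the spacing of the lowest values, of which 57.6 to 86.3% under 50 reads came out within 0.1 of a whole number. No libraries were identical.

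Replicate numbers are shared between groups. Deviations of same-numbered libraries from their group means correlated at 0.12 to 0.62 between EtOH and auxin at 16 h and 0.27 to 0.66 at 88 h. Differently numbered libraries correlated there at -0.63 to 0.18 and -0.59 to 0.42. These ranges overlap, so the numbers alone do not show which depletion libraries are pairs. Between wild-type nuclei and worms the values were 0.11 to 0.14 for the same number and -0.14 to 0.02 for different numbers. The same-number values were all over 0.1, and these libraries were regarded as pairs, but the main fits held no term for pairs. In daf-2 nuclei and worms same-numbered libraries correlated at 0.07 to 0.10, and the study took both from each preparation, so these were regarded as pairs as well. The standard errors and p-values given for nuclei against worms come from the fits without pairs, and blocks were run only as alternatives. With a replicate block no call of a member changed in those comparisons. Alternatives were median-of-ratios scaling, quantile normalization, no filter, log2(CPM + 1), a replicate block, no intensity trend, other sets of libraries, and each library left out. A block for each pair was added after the data were seen.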

Additional observations from a re-analysis of the deposited data

How the results depend on the processing

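HSF-1 depletion and both differences of effects gave 0 members past the threshold under each alternative run. Of 1330 values of single members under an alternative, 24 lost and 12 gained a call, and 0 called values changed sign. A further 122 values called in neither fit changed sign, from main differences of at most 0.87. Members that changed between the 88 h and 16 h controls went from 2 to 0 without the intensity trend and to 0 with the compared groups alone, and to 0 to 2 with 1 library left out. In daf-2 nuclei the count went from 0 to 1 with median-of-ratios scaling (wago-1), to 1 on log2(CPM + 1) (alg-4), and to 2 with quantile normalization or with all 12 libraries (both genes). In daf-2 worms the count of 1 became 0 with quantile normalization, on log2(CPM + 1), without the trend and with all 12 libraries, 3 with the replicate block (prg-1, hrde-1 and ergo-1) and 0 to 5 with 1 library left out. In wild-type nuclei against worms it went from 2 to 1 with quantile normalization (wago-1 lost). In daf-2 nuclei against worms it was 5, and 4 only with quantile normalization. The causes were not tested. Same-numbered libraries did not correlate over 0.1 throughout between the genotypes (0.00 to 0.04 in nuclei, -0.09 to 0.23 in worms), so there the replicate block is only a description. It changed no call of a member outside daf-2 worms.

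Over all genes, quantile normalization moved the median from -0.34 to -0.08 and from -0.63 to -0.16 for nuclei against worms in the wild type and daf-2, from -0.15 to 0.04 for daf-2 nuclei and from 0.03 to -0.12 for the controls. Of genes called between the controls 76.9% were higher, and 49.3% with quantile normalization (2533 genes against 1250). That count was 2069 on log2(CPM + 1), 3164 with the block, 481 without the trend and 0 with the compared groups alone. In daf-2 nuclei 524 genes became 964 with quantile normalization, 0 with the block, 273 without the trend and 1791 with all 12 libraries. In daf-2 worms 2453 became 1588, 4122 with the block and 798 with all 12 libraries. The 13 genes of depletion at 88 h became 8 with the compared groups alone. The 14 genes whose nuclear enrichment differed between genotypes became 26 with quantile normalization, 24 on log2(CPM + 1), 131 with the block, 160 without the trend and 1 with a block for each pair. Leaving out 1 library moved these counts too: to 0 (16 h replicate 2 or 3) to 2359 (16 h replicate 1) between the controls, 0 (any daf-2 library) to 305 in daf-2 nuclei, 778 (wild-type replicate 1) to 3588 (wild-type replicate 2) in daf-2 worms, 3150 (worm replicate 2) to 4293 for wild-type nuclei against worms, 8 to 10 for depletion at 88 h, 6 to 9 at 16 h, and 0 to 181 (wild-type worm replicate 2) for the difference of enrichment. The shares of all genes given beside the members move with them. Few reads limit alg-4 and alg-2 in nuclei.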
